A study of Mus musculus with 6 samples.

Results

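Serum response factor (Srf) and 9 genes of the contractile actin cytoskeleton were compared between mouse embryonic stem cells (ESCs) and epiblast-like cells (EpiLCs). The 10 genes were chosen by symbol from a table of 24736 genes. They were Srf itself, the smooth muscle actins Acta2 and Actg2, the actin-binding genes Tagln, Cnn1 and Cnn2, the myosin light chain gene Myl9, the tropomyosin genes Tpm1 and Tpm2, and the adhesion gene Vcl. Whether SRF bound or drove any of them in these cells was not measured.

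SRF is a transcription factor that binds the CArG box, a short motif with an A/T-rich core. It works with cofactors of the myocardin and MRTF family, which enter the nucleus when free actin monomers are used up by filament assembly, or with ternary complex factors (TCFs), which respond to mitogens through ERK. The MRTF arm is known for contractile and adhesion genes such as those studied here, the TCF arm for immediate early genes, and serum is a classical stimulus of both. Fibroblasts and smooth muscle cells express these contractile genes strongly.

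The samples were 3 biological replicates of wild-type ESCs at 0 h and 3 of EpiLCs at 48 h, all of 1 male line, HM1 TetON, which carries an inducible-transgene system. The ESCs were grown in knockout DMEM with 10% serum and 1000 U/ml LIF, a cytokine that keeps ESCs undifferentiated. The EpiLCs were derived from them in serum-free N2/B27 medium with 10 ng/ml bFGF, a growth factor, and 5 µM LGK974, a porcupine inhibitor that blocks WNT secretion. According to the methods, ESCs were propagated on inactivated mouse embryonic fibroblasts (feeders), from which cells entering differentiation were separated by letting the feeders adhere to plastic. Whether the ESC samples were separated in the same way is not given in the sources used here. Serum, LIF, feeders, bFGF, LGK974 and time all changed together, so their parts in any difference cannot be told apart.

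Total expected counts ranged from 16967741 to 28521848 in the ESC libraries and from 30683164 to 35096210 in the EpiLC libraries, and 14468 genes passed the filter on low counts. The summed level of 4 markers of formative epiblast (Fgf5, Pou3f1, Otx2 and Dnmt3b) was between 283 and 390 TPM (transcript abundance scaled for transcript length and library) in ESCs and between 1985 and 2064 TPM in EpiLCs. The summed level of 6 pluripotency genes was between 2706 and 3430 TPM in ESCs and between 1566 and 1754 TPM in EpiLCs. Most of the EpiLC sum was Pou5f1, at between 1355 and 1574 TPM in EpiLCs and between 1237 and 1418 TPM in ESCs. The other 5 were lower in every EpiLC library than in every ESC library, as were 29.0% of the genes that passed the filter. The 5 smooth muscle markers Myh11, Myocd, Des, Smtn and Lmod1 summed to between 35.5 and 42.0 TPM in all 6 libraries, most of it from Smtn (between 25.9 and 30.6 TPM). Single markers varied below that sum: Lmod1 measured 1.39, 6.54 and 0.98 TPM in ESCs and between 0.75 and 0.82 TPM in EpiLCs, and Myh11, the defining myosin of smooth muscle, 0.71, 0.87 and 0.18 TPM in ESCs and between 0.34 and 0.61 TPM in EpiLCs. The 8 cardiac and skeletal muscle markers summed to between 11.6 and 23.9 TPM. The 15 fibroblast markers summed to 337 TPM in ESC library 1, 1444.5 TPM in ESC library 2 and 125 TPM in ESC library 3, and to between 48.7 and 91.3 TPM in EpiLCs. ESC library 2 thus stood apart in fibroblast markers. Thy1 alone supplied between 20.1 and 23.8 TPM of this sum in EpiLCs, and it was between 10.0 and 35.1 TPM in ESCs. ESC library 1 stood apart in 5 primitive streak markers, which summed to 414, 159 and 124 TPM in ESCs and to 7.59, 7.51 and 45.7 TPM in EpiLCs, with EpiLC library 3 apart from its group. The 6 primitive endoderm markers summed to 67.9, 43.7 and 34.2 TPM in ESCs and to between 9.15 and 10.4 TPM in EpiLCs.

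The promoters of 8 of the 10 genes were found among the RefSeq sequences (GRCm38.p6, the build of the mm10 genome used by the authors). Those of Actg2 and Tagln were not in that table. The 250 bases upstream of each listed transcript start were searched for an exact CArG box, whose pattern reads the same on both strands. A box was present in 4 of the 8 promoters, against 482 of all 32851 promoters (1.47%). These were the promoters of Srf, Cnn2, Myl9 and Vcl, and their boxes follow in capitals, with 35 bases on either side or up to the edge of the searched window. They are shown because the CArG box is the motif that SRF binds.
Srf: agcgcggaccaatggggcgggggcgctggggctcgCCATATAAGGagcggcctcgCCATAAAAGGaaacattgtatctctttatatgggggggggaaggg
Cnn2: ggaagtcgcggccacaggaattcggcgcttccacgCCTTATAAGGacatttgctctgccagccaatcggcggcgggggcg
Myl9: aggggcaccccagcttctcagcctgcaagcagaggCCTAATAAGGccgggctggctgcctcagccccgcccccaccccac
Vcl: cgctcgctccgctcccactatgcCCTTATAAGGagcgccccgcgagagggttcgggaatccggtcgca

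The Srf stretch is at chr17:46556180-46556279 on the minus strand, upstream of the transcript start used in the table but inside the wider span that RefSeq gives the gene. The Cnn2 stretch is at chr10:79988509-79988588, the Myl9 stretch at chr2:156775268-156775347 and the Vcl stretch at chr14:20929148-20929215, all on the plus strand and upstream of the gene. Srf had 2 boxes, at 82 to 73 and at 62 to 53 bases upstream of its start, and only 6 of all promoters (0.0183%) held 2 or more. The box of Cnn2 was 56 to 47 bases, that of Myl9 161 to 152 bases and that of Vcl 227 to 218 bases upstream. Cnn2 and Vcl shared the same 10-base box. No exact box was in these windows of Acta2, Cnn1, Tpm1 and Tpm2. With 1 mismatch, the windows of Acta2 and Tpm1 held 2 boxes each and those of Cnn1 and Tpm2 held 0. Such a box was in 17.5% of all promoters. The Tpm1 window lay wholly, and the Acta2 window mostly, inside the span that RefSeq gives the gene. The windows of Cnn1 and Tpm2 lay partly inside it. The search therefore says nothing about boxes elsewhere in or upstream of those 4 genes. A match of letters is not evidence of binding, and the boxes are referred to below only as a feature of the sequences.

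All 10 genes passed the filter on low counts. Tested by edgeR's quasi-likelihood method, with p-values adjusted over all 14468 genes (Benjamini-Hochberg), 1 gene was higher in EpiLCs (Srf), 1 was lower (Actg2) and 8 did not pass the threshold of 0.05. Among all genes tested, 45.4% passed it, 22.6% as higher and 22.8% as lower. The difference between these shares was not tested. The median log2 fold change of the 10 genes was −0.23 against −0.0017 for all genes, with 3 above 0 and 7 below, and it was 0.21 without ESC library 2 and −0.60 without ESC library 3. Groups did not overlap for 1 of the 10, Srf, whereas 30.3% of all genes lay wholly higher and 29.0% wholly lower in EpiLCs. In such bulk libraries fewer cells of a type and less RNA per cell cannot be told apart.

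**Figure D1:**
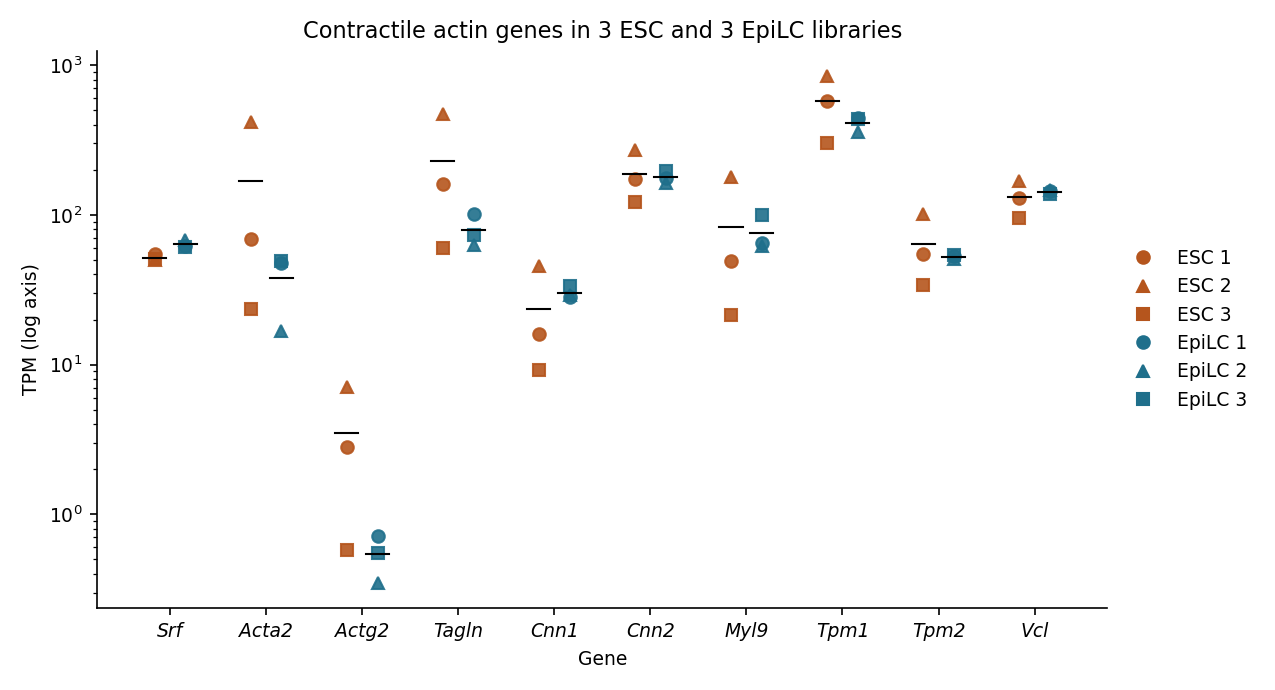
Level of each gene in TPM (log axis) in the 3 ESC libraries (orange) and 3 EpiLC libraries (blue), with the replicate given by the marker and the group mean by a black line. Except for Srf, ESC library 2 is the highest and ESC library 3 the lowest of the ESC libraries for every gene, and the EpiLC libraries lie closer together.

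Srf (chromosome 17, 46546838 to 46558267) encodes the transcription factor itself. Its level was 54.5, 50.1 and 50.8 TPM in ESC libraries 1 to 3 and 61.7, 67.5 and 61.0 TPM in EpiLC libraries 1 to 3. Every EpiLC library lay above every ESC library. Srf was higher by 0.24 on the log2 scale (SE 0.063, 95% confidence interval 0.09 to 0.39), with an adjusted p of 0.0193 by edgeR's quasi-likelihood test. The direction held without any 1 library, but the adjusted p was 0.0565 without EpiLC library 1 and 0.0720 without EpiLC library 2. In an edgeR quasi-likelihood fit that also included the replicate number, the adjusted p of Srf was 0.0523. Its libraries lay close together in both groups, with a range on the log2 CPM scale of 0.11 in ESCs and 0.11 in EpiLCs.

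Acta2 (chromosome 19, 34240336 to 34255585), the α-actin of smooth muscle and of activated fibroblasts, was the most variable gene of the set. Its level was 68.5, 415 and 23.5 TPM in ESCs and 47.8, 16.8 and 48.9 TPM in EpiLCs. ESC library 3 lay within the EpiLC range and ESC library 2 was 17.6 times ESC library 3. Its log2 fold change of −2.20 had a 95% confidence interval from −4.56 to 0.17 and did not pass the test (adjusted p = 0.113, edgeR's quasi-likelihood test). Without ESC library 3 the adjusted p was 0.0293 and the log2 fold change −2.70, and without ESC library 2 the log2 fold change was −0.32. Its expected counts were not whole numbers in most libraries, so part of its reads was shared with other genes and divided between them by the counting program.

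Actg2 (chromosome 6, 83512909 to 83536251), the γ-actin of enteric smooth muscle, was near the limit of detection. Its level was 2.81, 7.06 and 0.58 TPM in ESCs and 0.72, 0.35 and 0.55 TPM in EpiLCs. These values rested on 37, 71 and 10 expected counts in ESCs and on 15, 7 and 10 in EpiLCs. ESC libraries 1 and 2 were above all EpiLC libraries, and ESC library 3 was among them. Actg2 passed the test as lower in EpiLCs, with a log2 fold change of −2.68 (SE 0.84, 95% confidence interval −4.68 to −0.68, adjusted p = 0.0380 by edgeR's quasi-likelihood test). The call was lost without any 1 library other than ESC library 3, with adjusted p-values of 0.0675 and 0.0875 without ESC libraries 1 and 2 and of 0.0862, 0.117 and 0.103 without EpiLC libraries 1, 2 and 3. The log2 fold change was −1.65 without ESC library 2 and between −2.95 and −2.44 without any 1 EpiLC library.

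Tagln (chromosome 9, 45929628 to 45936058) encodes transgelin, an actin-crosslinking protein of smooth muscle also called SM22. Its level was 160, 472 and 60.5 TPM in ESCs and 102, 63.1 and 73.1 TPM in EpiLCs. The groups overlapped, with ESC library 3 below all EpiLC libraries and the other ESC libraries above them. The log2 fold change of −1.58 (SE 0.66) did not pass the test (adjusted p = 0.0909, edgeR's quasi-likelihood test), although it did without ESC library 3 (−2.02, adjusted p = 0.0113). Without ESC library 2 it was −0.51.

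The calponins bind actin filaments and restrain myosin. Cnn1 (chromosome 9, 22099221 to 22109221), the smooth muscle form, measured 15.9, 45.7 and 9.22 TPM in ESCs and 28.1, 29.2 and 33.5 TPM in EpiLCs. Every EpiLC library was above ESC libraries 1 and 3 and below ESC library 2. With all libraries the log2 fold change was 0.32 (95% confidence interval −0.91 to 1.56, adjusted p = 0.637 by edgeR's quasi-likelihood test) and became 1.22 without ESC library 2 (adjusted p = 0.00567) and −0.05 without ESC library 3.

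Cnn2 (chromosome 10, 79988600 to 79995400), a calponin of many non-muscle cells, is 1 of the 4 genes with a CArG box in the searched window. It measured 173, 271 and 122 TPM in ESCs and 176, 164 and 196 TPM in EpiLCs. The EpiLC levels fell between those of ESC libraries 2 and 3. Its log2 fold change was −0.12 (SE 0.26, adjusted p = 0.721 by edgeR's quasi-likelihood test) and 0.23 without ESC library 2.

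Myl9 (chromosome 2, 156775408 to 156781657), a regulatory light chain of smooth muscle and non-muscle myosin II, also has a box. Its level was 49.6, 178 and 21.6 TPM in ESCs and 64.7, 61.8 and 100 TPM in EpiLCs. As for Cnn1, all EpiLC libraries lay above ESC libraries 1 and 3 and below ESC library 2. The log2 fold change was −0.17 with all libraries (95% confidence interval −1.79 to 1.45, adjusted p = 0.854) and 1.05 without ESC library 2 (adjusted p = 0.0563, both by edgeR's quasi-likelihood test).

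Tropomyosins run along the actin filament and govern access of myosin. Tpm1 (chromosome 9, 67022590 to 67049672) was the most abundant of the 10 genes per length, at 578, 846 and 301 TPM in ESCs and 441, 358 and 436 TPM in EpiLCs. Tpm2 (chromosome 4, 43513726 to 43523583) measured 54.9, 102 and 34.1 TPM in ESCs and 52.9, 50.6 and 54.0 TPM in EpiLCs. For both genes the EpiLC libraries fell inside the range of the ESC libraries. The log2 fold changes were −0.52 (SE 0.34, adjusted p = 0.242) for Tpm1 and −0.30 (SE 0.34, adjusted p = 0.504) for Tpm2 by edgeR's quasi-likelihood test. Without ESC library 3 Tpm1 passed it as lower (−0.82, adjusted p = 0.0122), and without ESC library 2 Tpm1 stood at −0.12 and Tpm2 at 0.20.

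Vcl (chromosome 14, 20929383 to 21033676) encodes vinculin, which links actin filaments to integrin and cadherin adhesions. It measured 130, 169 and 94.9 TPM in ESCs and 144, 147 and 139 TPM in EpiLCs. The 3 EpiLC libraries lay between ESC library 1 and ESC library 2. The log2 fold change was 0.07 (95% confidence interval −0.36 to 0.51, adjusted p = 0.762 by edgeR's quasi-likelihood test) and ranged from −0.10 without ESC library 3 to 0.30 without ESC library 2.

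By mean TPM, the order in EpiLCs was Tpm1 (411 ± 46.6, SD, n = 3), Cnn2 (179 ± 16.2), Vcl (143 ± 3.94), Tagln (79.4 ± 20.3), Myl9 (75.7 ± 21.5), Srf (63.4 ± 3.55), Tpm2 (52.5 ± 1.74), Acta2 (37.8 ± 18.3), Cnn1 (30.3 ± 2.82) and Actg2 (0.54 ± 0.19). The libraries of Tagln, Myl9 and Srf overlapped with those of their neighbours among these 3, as did those of Acta2 and Cnn1, so their order is not fixed. In ESCs the SD exceeded the mean for Acta2 (169 ± 214) and Myl9 (83.1 ± 83.5) and was almost as large for Actg2 (3.48 ± 3.29) and Tagln (231 ± 215).

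The spread among ESC libraries was a shared feature of the contractile genes. For 9 of the 10, all but Srf, ESC library 2 was highest, ESC library 1 intermediate and ESC library 3 lowest, an order seen in 24.4% of all genes tested. The highest and lowest ESC libraries differed by more than 1 on the log2 CPM scale for 8 of the 10 genes, against 16.8% of all genes. The median range was 1.91 for the 10 genes and 0.378 for all genes. In EpiLCs the median range was 0.31 for the 10 genes and 0.204 for all genes, and 1 of the 10 (Acta2) had a range above 1, against 5.90% of all genes.

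ESC library 2 exceeded ESC library 3 in TPM by 17.6 times for Acta2 and 12.2 times for Actg2. Myl9 differed by 8.26 times, Tagln by 7.80 times and Cnn1 by 4.95 times. The ratio was 2.98 for Tpm2, 2.81 for Tpm1, 2.22 for Cnn2, 1.78 for Vcl and 0.986 for Srf.

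The fibroblast markers were ordered in the same way. Of the 14 markers tested, 13 had the order of ESC library 2 over 1 over 3 (24.4% of all genes), and 9 were lower in EpiLCs (22.8% of all genes). The marker with another order was Pdgfra, which was among these 9 and was also counted among the primitive endoderm markers. Col1a1, a fibrillar collagen gene, measured 90.5, 489 and 28.3 TPM in ESCs and 6.63, 13.9 and 3.08 TPM in EpiLCs, and passed as lower (log2 fold change −4.74, adjusted p = 0.0144 by edgeR's quasi-likelihood test, but 0.0603 and 0.0539 without EpiLC libraries 1 and 3). Its log2 fold change was −2.97 without ESC library 2 and −5.41 without EpiLC library 2. Col1a2 followed the same order, at 88.8, 412 and 30.6 TPM in ESCs. Col3a1 stood at 11.1, 55.5 and 3.82 TPM in ESCs and 6.24, 7.81 and 3.18 TPM in EpiLCs, with ESC library 3 inside the EpiLC range, as for Acta2 and Actg2. Lum, a marker of mature fibroblasts, was listed at 0 in 3 of the 6 libraries. The part of fibroblast RNA in the levels of the contractile genes was not tested.

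**Figure D2:**
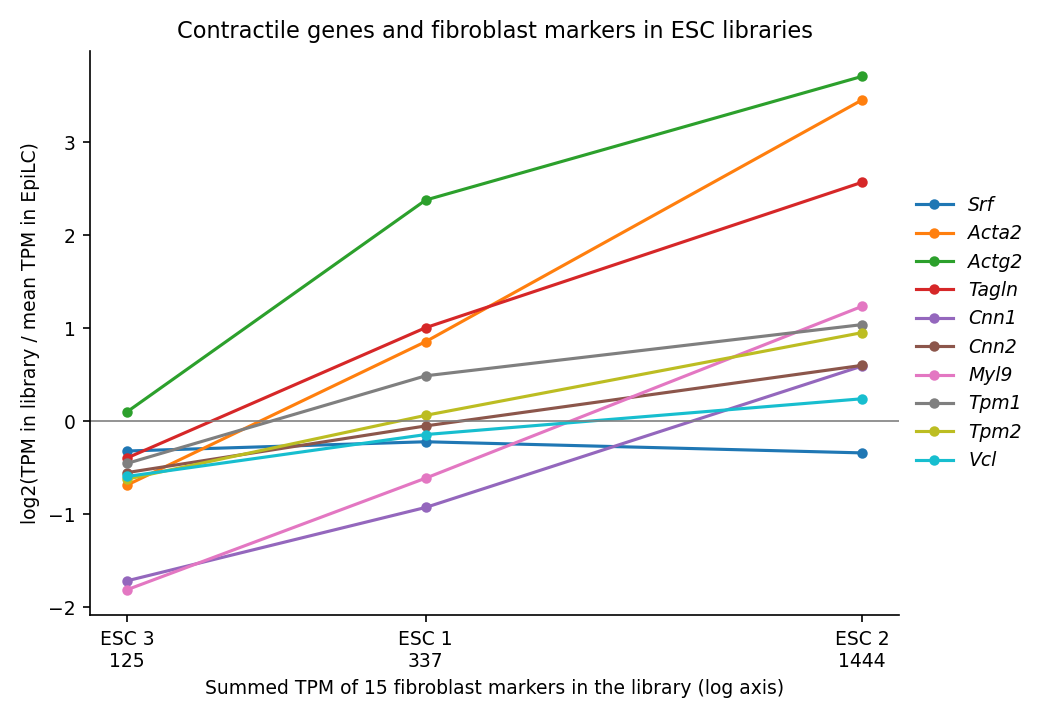
Each ESC library is placed by the summed TPM of 15 fibroblast markers (horizontal log axis: 125 in ESC 3, 337 in ESC 1 and 1444.5 in ESC 2), and each line gives a gene's level there as log2 of its TPM over the EpiLC mean (vertical axis, 0 is equal to EpiLCs). The line of Srf is flat and below 0, the other 9 lines climb from ESC 3 to ESC 2, and in ESC 3 all genes but Actg2 lie below the EpiLC mean.

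Since the ESC libraries differed, the EpiLCs were also compared with each ESC library on its own. In these fits the lone ESC library has no replicate and is assumed to vary like the EpiLC libraries. For the contractile genes the ESC libraries varied more than the EpiLC libraries did, so these p-values are too small, and the values describe the difference from that library, not between the cell types. The comparisons with ESC libraries 1 and 2 alone were added after the data were seen.

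Against ESC library 3, the one with the least fibroblast marker RNA, 9 of the 10 genes had a log2 fold change above 0. The threshold was passed by 5 of the 10 as higher and by none as lower in edgeR's quasi-likelihood fit (at an unadjusted p under 0.05, 7 as higher and 0 as lower), beside 22.5% of all genes as higher and 23.3% as lower. The 5 were Myl9 (1.73), Cnn1 (1.63), Tpm2 (0.55), Vcl (0.51) and Cnn2 (0.47). Acta2 stood at 0.60, Tpm1 at 0.40, Tagln at 0.31, Srf at 0.23 and Actg2 at −0.20. The median over the 10 genes was 0.49, against 0.0052 for all genes.

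Against ESC library 2, the one with the most fibroblast marker RNA, Srf passed as higher and the other 9 genes as lower, beside 21.5% of all genes as higher and 22.9% as lower. The log2 fold changes ran from −0.28 for Vcl and −0.63 for Cnn1 to −3.49 for Acta2 and −3.73 for Actg2, with a median over the 10 genes of −1.03. Against ESC library 1, Cnn1 passed as higher (0.89) and Actg2 (−2.40), Tagln (−1.04) and Tpm1 (−0.50) as lower, beside 20.2% of all genes as higher and 20.5% as lower. The sign of the log2 fold change of Cnn1, Myl9, Cnn2, Tpm2, Tpm1, Vcl, Acta2 and Tagln turned with the ESC library chosen, and that of Srf and Actg2 was the same against all 3.

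When ESC library 2 was left out and the other 5 libraries were fitted together, 2 of the 10 genes were higher (Srf and Cnn1) and none was lower by edgeR's quasi-likelihood test (at an unadjusted p under 0.05, 4 were higher and 1, Actg2, was lower), with 24.3% of all genes higher and 24.5% lower. Without ESC library 3, 4 of the 10 genes were lower (Acta2, Actg2, Tagln and Tpm1) and none was higher other than Srf, with 22.6% of all genes higher and 23.2% lower. The counts over the 10 genes therefore rest on which ESC libraries are used.

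**Figure D3:**
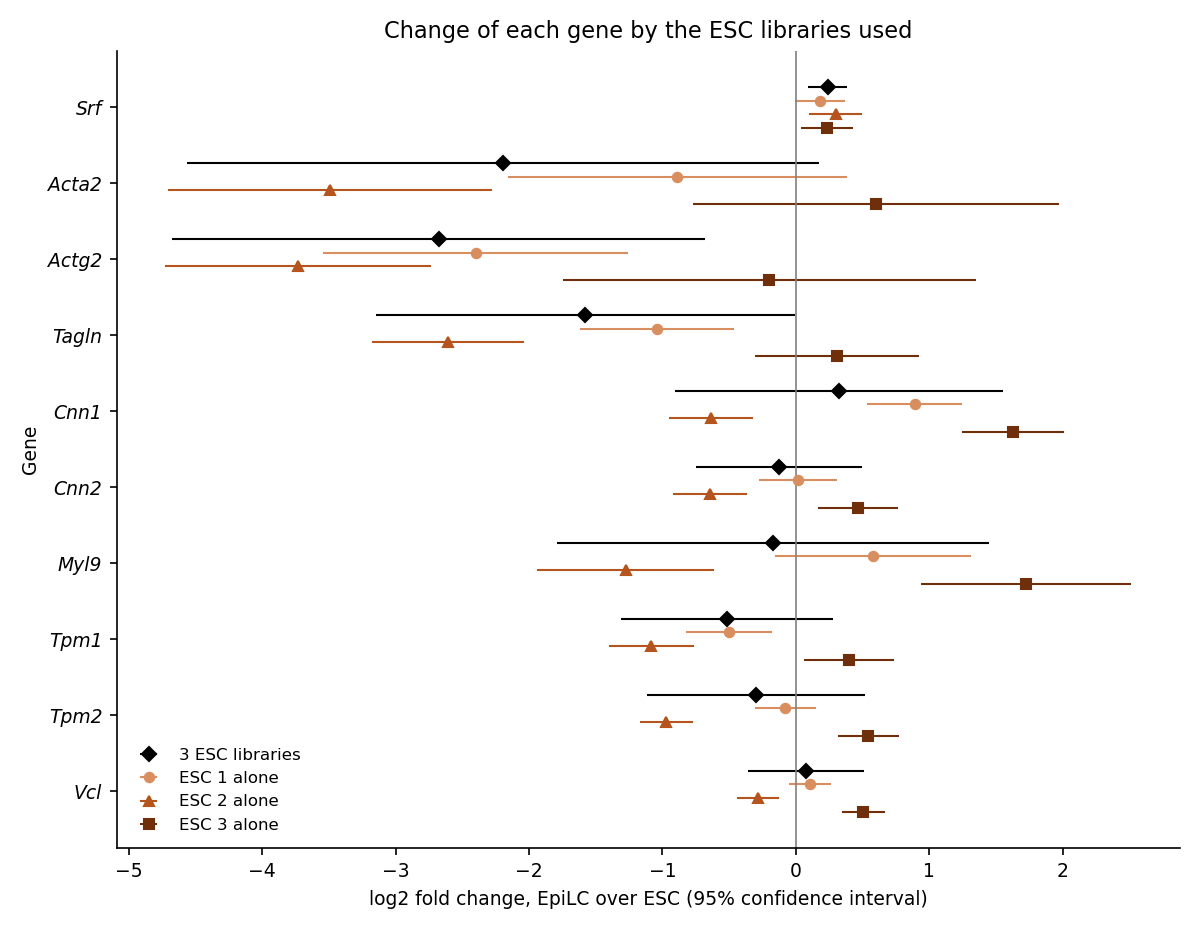
log2 fold change of EpiLCs over ESCs with its 95% confidence interval for each gene, with all 3 ESC libraries (black diamonds) or with 1 ESC library alone (coloured points, whose intervals rest on the EpiLC spread). Srf lies above 0 in all 4 fits, and for the other genes the point of ESC 3 lies to the right and that of ESC 2 to the left.

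The contractile isoforms were next set against their paralogs in the same library, as shares of the summed TPM of the family. Acta2 and Actg2 made up 0.965%, 4.92% and 0.413% of the TPM of 6 actins in ESCs and 0.659%, 0.239% and 0.710% in EpiLCs. The cytoplasmic actins Actb and Actg1 supplied most of the rest, at 3467, 4094 and 3430 TPM in ESCs and 3429, 3377 and 4105 TPM in EpiLCs for Actb, and at 3832, 4046 and 2377 TPM in ESCs and 3870, 3753 and 2777 TPM in EpiLCs for Actg1. Neither passed the test, and their direction was not fixed, since the log2 fold change turned from −0.06 to 0.02 for Actb and from −0.03 to 0.11 for Actg1 without ESC library 2. The striated muscle actins Acta1 (between 3.36 and 14.3 TPM) and Actc1 (between 4.77 and 21.4 TPM) were low throughout and did not pass either. None of these 4 other actins passed in edgeR's quasi-likelihood test, at an unadjusted p under 0.05 or in DESeq2.

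Tagln made up 41.1%, 65.3% and 20.5% of the transgelin TPM in ESCs and 33.8%, 24.0% and 28.2% in EpiLCs. Its paralog Tagln2, the form of most non-muscle cells, was higher in every ESC library, at 226, 248 and 230 TPM against 196, 195 and 181 TPM in EpiLCs (log2 fold change −0.35, SE 0.062, adjusted p = 0.00451 by edgeR's quasi-likelihood test). The neuronal form Tagln3 was between 2.83 and 5.30 TPM. Cnn1 made up 2.39%, 5.71% and 1.69% of the calponin TPM in ESCs and 4.37%, 4.82% and 5.57% in EpiLCs, and most of that family was Cnn3, the acidic calponin, at between 372 and 483 TPM. Cnn3 did not pass edgeR's quasi-likelihood test with all libraries (−0.22, adjusted p = 0.0624) but did without ESC library 3 (−0.27, adjusted p = 0.0272) and in DESeq2 (−0.23, adjusted p = 0.0290).

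Tpm2 made up 3.49%, 5.07% and 3.16% of the tropomyosin TPM in ESCs and 3.57%, 3.67% and 3.62% in EpiLCs. The other tropomyosin genes, Tpm3 (between 533 and 652 TPM) and Tpm4 (between 213 and 424 TPM), did not pass edgeR's quasi-likelihood test, at an unadjusted p under 0.05 or in DESeq2. Tpm4 passed as higher without ESC library 2 (0.57, adjusted p = 0.0290), and Tpm3 as lower without ESC library 3 (−0.19, adjusted p = 0.0482).

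None of the 4 shares differed between the groups beyond the spread of the ESC libraries. The difference, EpiLC minus ESC in percentage points, was −1.56 for the smooth muscle actins (exact permutation test, two-sided, p = 0.3), 1.66 for Cnn1 (exact p = 0.4), −13.6 for Tagln (exact p = 0.5) and −0.28 for Tpm2 (exact p = 1). Adjusted over the 4 shares by the Benjamini-Hochberg method these exact p-values were 0.667 for the first 3 and 1 for Tpm2, and 3 libraries against 3 cannot give a p below 0.1. Without ESC library 2 the differences were −0.15, 2.88, −2.14 and 0.30 points in the same order, and without ESC library 3 they were −2.40, 0.87, −24.5 and −0.66 points.

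**Figure D4:**
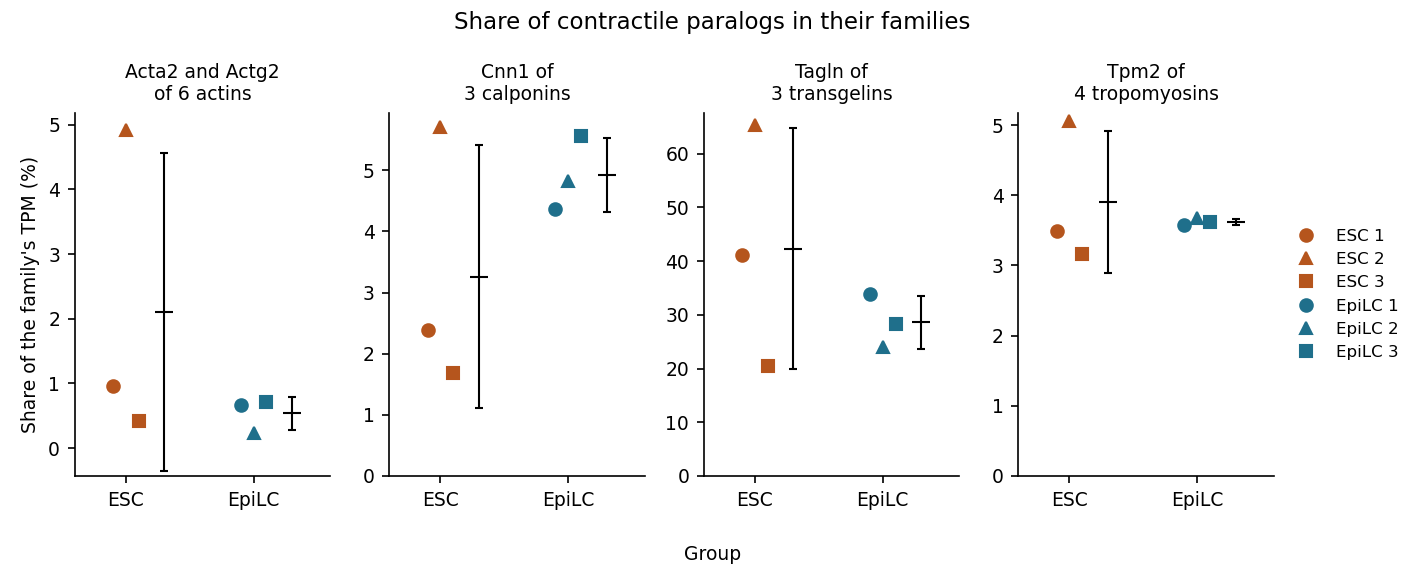
Share of the contractile paralogs in the summed TPM of their family (percent) in each ESC (orange) and EpiLC (blue) library, with mean and SD beside the points. In all 4 families ESC 2 has the highest share of the ESC libraries, and the EpiLC libraries lie inside the range of the ESC libraries except for the smooth muscle actins, where EpiLC 2 is the lowest.

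The cofactors through which SRF acts were then examined. Mkl1, the symbol used in the deposited table for Mrtfa, encodes an actin-sensing coactivator and rose in EpiLCs, from 12.9, 15.2 and 11.4 TPM to 18.7, 20.3 and 17.3 TPM. Its log2 fold change was 0.46 (SE 0.12, adjusted p = 0.0185 by edgeR's quasi-likelihood test), with every EpiLC library above every ESC library. The adjusted p was 0.0594 without ESC library 1, 0.0643 without EpiLC library 1 and 0.0690 without EpiLC library 2. Its relative Mkl2 (Mrtfb) stood at 9.69, 9.28 and 8.99 TPM in ESCs and 11.2, 12.1 and 10.5 TPM in EpiLCs and did not pass with all libraries (0.25, adjusted p = 0.0988), but did without ESC library 2 (0.31, adjusted p = 0.0435).

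Myocd, the founding coactivator of this family in heart and smooth muscle, fell from 1.10, 1.79 and 1.55 TPM to 0.46, 0.50 and 0.29 TPM (log2 fold change −1.86, adjusted p = 0.00321 by edgeR's quasi-likelihood test). The TCF gene Elk3 fell from 6.58, 15.3 and 3.72 TPM to 2.70, 2.98 and 2.19 TPM (−1.74, adjusted p = 0.0241), with the same order of ESC libraries as the contractile genes. Its call was lost without EpiLC library 1 (0.0750), 2 (0.0641) or 3 (0.0843), and its log2 fold change was −1.02 without ESC library 2. The other TCF genes, Elk1 (−0.15) and Elk4 (−0.23), the MRTF inhibitor Scai (0.26) and Fhl2 (−1.44), a LIM-domain protein that binds SRF, did not pass with all libraries, and Fhl2 did without ESC library 3 (−1.87, adjusted p = 0.0181) and in DESeq2 (−1.47, adjusted p = 0.0337). Without ESC library 2 the log2 fold change of Fhl2 was −0.39. In all, 1 of the 8 cofactors tested rose and 2 fell, with a median log2 fold change of −0.19, beside 22.6% higher and 22.8% lower among all genes.

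Of 9 myosin II genes, 1 was higher and 2 were lower, at or under the shares of all genes (22.6% and 22.8%). Myh9, the non-muscle myosin heavy chain IIA, fell from 276, 352 and 213 TPM to 170, 169 and 158 TPM (−0.81, adjusted p = 0.00705 by edgeR's quasi-likelihood test). Ppp1r12a, the targeting subunit of myosin phosphatase, fell by 0.29, and Ppp1r14b, an inhibitor of the same phosphatase, rose by 0.59, both on the log2 scale and with no overlap of the groups. Of 21 genes of focal adhesions and filament linkers, 1 was higher and 9 were lower, with a median of −0.69, beside 22.6% higher and 22.8% lower among all genes. Of these 21 genes, 16 had the order of ESC library 2 over 1 over 3 that the fibroblast markers had (24.4% of all genes), and the part of fibroblast RNA in their change was not tested. The higher gene was Ilk, an integrin-linked adaptor (0.55, adjusted p = 0.0412 by edgeR's quasi-likelihood test), named after its value was seen. Its call was lost without ESC library 1 or any 1 EpiLC library (0.0592 to 0.120), and the higher count ran from 0 to 3 without 1 library. Lima1, an actin-bundling LIM protein, fell from 105, 81.6 and 91.2 TPM to 29.7, 26.6 and 28.5 TPM (−1.77). The fibronectin receptor subunit Itga5 also fell (−1.69), although it had an adjusted p of 0.0544 without EpiLC library 3.

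Of 9 other genes known from smooth muscle contraction and its control, 1 was higher and 3 were lower (2 without EpiLC library 1 and 5 without ESC library 3), beside 22.6% and 22.8% of all genes. The higher gene was Synpo2, an actin-bundling protein of muscle (log2 fold change 2.38), also named after its value was seen and at no more than 2.02 TPM. Fhl1 fell by 1.07 and Csrp2, a LIM protein of smooth muscle, by 0.69 on the log2 scale, and the call of Fhl1 was lost without EpiLC library 1, 2 or 3 (adjusted p from 0.0736 to 0.0839). Without ESC library 2 the log2 fold change of Fhl1 was −0.59. The third gene called lower was Myocd, which is also among the cofactors counted above. Lmod1, a leiomodin of smooth muscle, did not pass with all libraries (−1.93, adjusted p = 0.0618 by edgeR's quasi-likelihood test) but did in DESeq2 (0.0105) and without ESC library 3 (0.0194), and every EpiLC library lay below every ESC library. Its log2 fold change was −0.62 without ESC library 2.

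The targets of the TCF arm were set beside the contractile genes. Of 8 immediate early genes and their like, 7 were lower in EpiLCs and none was higher (DESeq2 gave 8 lower and none higher, and none was higher at an unadjusted p under 0.05), and in all 8 every EpiLC library lay below every ESC library. Their median log2 fold change was −2.73. Among all genes 22.6% were called higher and 22.8% lower, and 29.0% lay wholly lower. Fos, an AP-1 subunit, measured 409, 176 and 324 TPM in ESCs and 2.77, 2.58 and 1.38 TPM in EpiLCs, a log2 fold change of −7.12. Its relative Fosb measured 211, 119 and 155 TPM in ESCs and 0.84, 0.64 and 0.30 TPM in EpiLCs (−8.14). The zinc-finger factor Egr1 measured 430, 295 and 340 TPM in ESCs and 43.1, 50.3 and 17.5 TPM in EpiLCs (−3.32, adjusted p = 0.000821 by edgeR's quasi-likelihood test). In these 3 genes ESC library 2 was the lowest of the ESC libraries. The order of library 2 over 1 over 3 was seen in 1 of the 8 TCF targets, Ier2, and in 24.4% of all genes.

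Of 5 targets shared between SRF and the coactivator YAP, 3 were lower in EpiLCs and none was higher (DESeq2 gave 4 lower and none higher, and none was higher at an unadjusted p under 0.05). The count of lower genes was 1 without EpiLC library 1 or 3 and 5 without ESC library 3, beside 22.6% higher and 22.8% lower among all genes. Thbs1, a matricellular protein gene, fell from 172, 1022 and 65.4 TPM to 30.6, 38.4 and 15.8 TPM (−3.94, adjusted p = 0.0184 by edgeR's quasi-likelihood test, from 0.0547 to 0.0703 without any 1 EpiLC library, and a log2 fold change of −2.12 without ESC library 2), with ESC library 2 highest as for the contractile genes. Cyr61, a secreted integrin ligand, fell from 197, 179 and 111 TPM to 57.0, 63.9 and 46.5 TPM (−1.59, adjusted p = 0.00158). Amotl2, a YAP-binding junction protein, fell by 0.49, with adjusted p-values of 0.0503 and 0.0643 without EpiLC libraries 1 and 3.

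**Figure D5:**
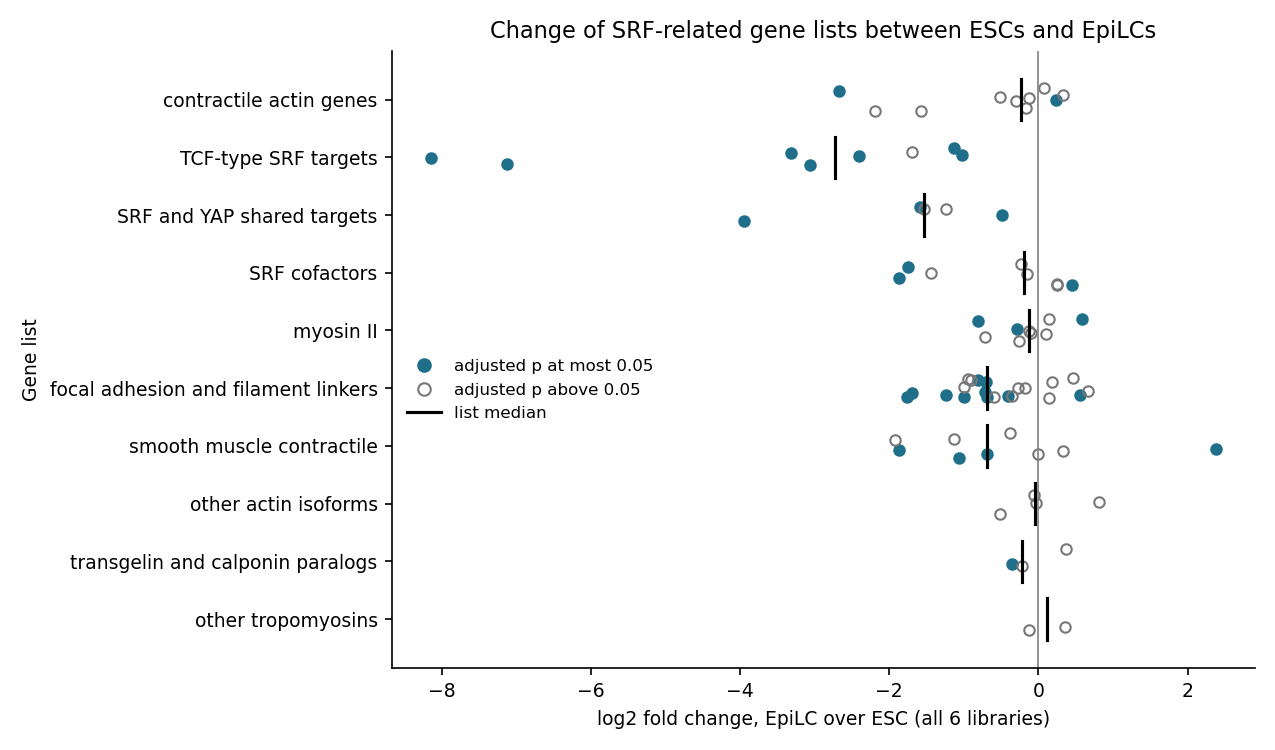
log2 fold change of EpiLCs over ESCs for the genes of each list (filled points, adjusted p at most 0.05; open points, above it; black line, list median; vertical scatter carries no meaning). The contractile actin genes have 8 of 10 open points and a median of −0.23, which is 0.21 without ESC library 2, and the TCF-type targets lie wholly below 0 around a median of −2.73.

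The genes whose profile over the 6 libraries was most like the mean profile of the 10 contractile genes were sought among the 9199 genes whose mean reached 10 CPM (counts scaled to library size). They were Cript (Pearson r = 0.994), Slc27a4 (0.992), Zdhhc4 (0.990), F2r (0.984) and Sar1a (0.984), given as a description over 6 libraries. F2r, which encodes a thrombin receptor, had the widest range on the log2 scale, at 31.6, 52.3 and 18.7 TPM in ESCs and between 28.0 and 32.0 TPM in EpiLCs.

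The mean transcript length behind each gene, taken as the ratio of expected count to TPM relative to the library's median, was taken for 9 of the 10 genes, all but Actg2, and for 9706 genes in all with enough reads (a minimum of 100 expected counts). Tpm1 and Tpm2, which are both spliced into muscle and non-muscle forms, differed the most between the group means, by 0.015 and 0.0155 on the log2 scale, larger than in 93.9% and 94.0% of those genes. For Tpm1 the groups overlapped, at 0.527, 0.537 and 0.524 times the library median in ESCs and 0.535, 0.536 and 0.534 times in EpiLCs. For Tpm2 they did not, at 0.702, 0.701 and 0.708 times in ESCs and 0.713, 0.709 and 0.712 times in EpiLCs. The files do not separate isoforms.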

How the data were processed

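Poly(A) RNA libraries of 3 ESC and 3 EpiLC samples were sequenced as strand-specific single-end reads of 76 nt. The labels give 48 h for EpiLCs, and a longer time given in the culture methods was not used here. The authors trimmed reads with cutadapt 1.16, aligned them with STAR 2.5.2a and counted them with RSEM 1.3.0 on mm10 RefSeq genes, and their notes name DESeq2 1.16.1. The authors deposited expected counts per gene, which are not normalized and divide reads shared by several genes (between 4.27% and 4.65% of values per library were not whole). They also deposited TPM, scaled for transcript length and library, on which levels and shares are given.

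Expected counts were rounded, filtered with filterByExpr, normalized by TMM (factors 0.979 to 1.02) and tested with edgeR 4.0.16 in R 4.3.3 by the quasi-likelihood test, with Benjamini-Hochberg adjustment over all 14468 genes and a threshold of 0.05. Confidence intervals are at 95%. The floor of 3 counts lay from 0.0855 to 0.177 CPM and, like any count limit, covers counting error alone. Log2 CPM used a prior count of 2. Shares were compared by exact permutation tests. Scripts were tested on simulated data. Alternatives were DESeq2 1.42.0, limma 3.58.1 on log2(TPM + 1) and log2(TPM + 0.1), other normalizations and filters, a replicate block, and leaving out or using alone single libraries. Added once the data had been seen were the edgeR bias-adjusted quasi-likelihood fit and the comparisons with ESC library 1 or 2 alone.

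The 10 genes, the other lists and the markers were chosen with earlier results of these data known. Named were all 10 genes, all genes of the paralog and cofactor lists, and of each other list up to 3 called genes with the largest change and a mean of at least 10 CPM (1 list and 1 gene are not reported here). For markers, the sums and Col1a1, Col1a2 and Col3a1 were named, with Myh11, Smtn, Lmod1, Lum, Pou5f1, Thy1, Pdgfra, Ilk, Ier2 and Synpo2 named after their values were seen. The genes most alike were the 5 with the highest Pearson r.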

Additional observations from a re-analysis of the deposited data

How the results depend on the processing

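Depth was lowest for Actg2, which had between 7 and 71 expected counts per library. The count of the 10 genes higher in EpiLCs was 1 with all libraries, 0 with the replicate block, 5 with ESC library 3 alone and between 0 and 2 when 1 library was left out. The count lower was 1 with all libraries. It was 0 with at least 10 counts in every library (which removed Actg2), with the replicate block, with ESC library 3 alone, with limma on log2(TPM + 1) or log2(TPM + 0.1) and with the edgeR bias-adjusted fit, 3 with ESC library 1 alone, 9 with ESC library 2 alone and between 0 and 4 when 1 library was left out. Over all genes, leaving out 1 library gave between 4244 and 7181 genes called (2144 to 3572 higher and 2100 to 3609 lower), with the fewest without EpiLC library 1. The difference in the Tpm2 share ran from −0.66 to 0.30 points. The cause of these changes was not tested.

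The labels do not say whether same-numbered ESC and EpiLC libraries came from a shared experiment. The deviations of same-numbered libraries from their group means correlated across genes with r = 0.01, 0.19 and 0.17. For differently numbered libraries r ran from −0.21 to 0.08. These correlations cannot decide whether the samples were paired. With the block 6085 genes were called in place of 6571, Srf (0.24, adjusted p = 0.0523) and Actg2 (−2.31, adjusted p = 0.0654) were not called, Cnn3 was called (−0.22, adjusted p = 0.0322), and Myl9 turned to 0.29.

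Log2 fold changes that changed sign were, with ESC library 3 alone, Acta2 (0.60), Tagln (0.31), Cnn2 (0.47), Myl9 (1.73), Tpm1 (0.40), Tpm2 (0.55), Actb (0.0014), Actg1 (0.46), Acta1 (0.90), Tagln3 (−0.092), Tpm3 (0.0060), Fhl2 (0.18) and Col3a1 (0.50). With ESC library 1 alone they were Cnn2 (0.015), Myl9 (0.58) and Actb (0.036), and with ESC library 2 alone Cnn1 (−0.63) and Vcl (−0.28). Limma gave Myl9 at 0.34 and 0.36 and Actg1 at 0.043 and 0.043, with pseudocounts of 1 and 0.1. Without 1 library, the ranges of those that turned were −0.053 to 1.22 for Cnn1, −0.35 to 0.23 for Cnn2, −0.62 to 1.05 for Myl9, −0.59 to 0.20 for Tpm2, −0.10 to 0.30 for Vcl, −0.16 to 0.023 for Actb and −0.22 to 0.11 for Actg1. Of 917 values of single genes under an alternative, 798 kept direction and side of the threshold, 33 passed it newly, 53 no longer passed and 33 turned.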
